A study of Mus musculus with 6 samples.

Results

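The regions described here, called F-type regions, are ChIP-seq regions whose centre lies on a LINE-1 (L1) repeat that the authors' annotation names L1Md_F, L1Md_F2 or L1Md_F3. They were chosen by that name alone, on chromosomes 1 to 19 and X of build mm10. There were 1144 of them, 2.93% of the 39096 regions in the deposited list and 4.97% of the 23030 regions on those chromosomes. They made up 6.84% of the 16717 regions centred on any L1 repeat there. The series profiled testis of C57Bl/6 mice at 5 weeks of age with an antibody to PHF13, a PHD finger protein also called SPOC1. Of its 6 libraries, 3 were SPOC1 ChIP (1 labelled wild type, 2 labelled Phf13-/-) and 3 were input (2 wild type, 1 Phf13-/-). The replicate 2 input is labelled wild type and the ChIP from the same animal code is labelled Phf13-/-, so genotypes were not compared. The list combines libraries without a column for any of them, the libraries that entered it are not given in the sources used here, and testis holds many cell types. No value below therefore has a replicate error, and the regions are not called PHF13 binding sites.

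L1 elements are retrotransposons: a full-length copy carries an internal promoter and 2 open reading frames, and it moves by reverse transcription of its own RNA. Mouse L1 subfamilies are told apart largely by the short tandem repeats, called monomers, that make up this promoter. The A, T and Gf subfamilies hold copies that can still move, whereas the F type is an older lineage from which the T and Gf types are thought to descend. In male germ cells, DNA methylation, the piRNA pathway and repressive histone marks keep L1 elements silent. Most genomic L1 copies lack part of the element, and reads from closely similar copies can be hard to place.

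Most F-type regions belonged to the F2 subfamily. L1Md_F2 gave 925 regions, 80.9% of the 1144 (Wilson 95% interval 78.5 to 83.0%). L1Md_F3 gave 141 (12.3%, 10.5 to 14.4%) and L1Md_F itself 78 (6.82%, 5.5 to 8.43%). The comparison groups on the same chromosomes were 8708 regions at L1Md_T, 5830 at L1Md_A and 264 at L1Md_Gf. Intervals here cover counting error only: neighbouring copies are not independent and regions are not replicates, so no test between subfamilies was made. Genomic copy numbers of the subfamilies were not analysed here, and these counts are therefore not enrichments.

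Taken as 1 group, F-type regions were far more frequent on X than on any autosome, which held for F2 and F3 but not for L1Md_F. X carried 257 of the 1144 regions, 22.5% (20.1 to 25.0%), or 1.53 per Mb, against a mean of 0.365 ± 0.072 per Mb over the autosomes (SD, n = 19). The autosomes ran from 0.202 per Mb on chromosome 11 to 0.47 on chromosome 12, so X lay above all of them, at 4.2 times their mean. The ratio was 4.46 at F2 and 4.28 at F3, with X above every autosome in both. At L1Md_F it was 1.47, and X, with 0.0418 per Mb, lay below chromosome 6, with 0.0546. For L1Md_T the same ratio was 1.94, for L1Md_A 1.98 and for L1Md_Gf 3.5. Expressed per 100 regions at L1Md_T or L1Md_A, the autosomes held 7.04 ± 1.18 F-type regions (SD, n = 19) and X held 15.0. Chromosome 16, with 5.29, and chromosome 12, with 9.4, were the extremes among autosomes, so X was also the highest relative to its T and A regions.

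**Figure D1:**
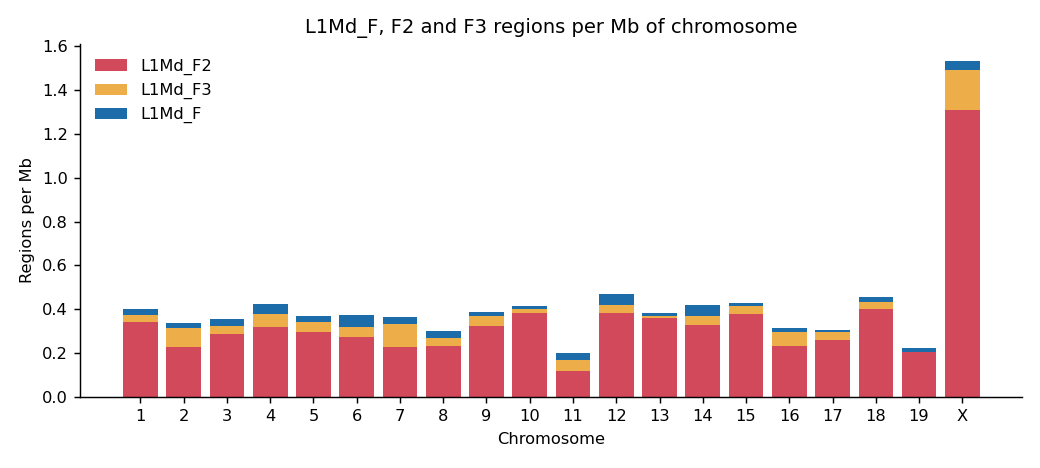
Regions per Mb of chromosome (vertical axis) for chromosomes 1 to 19 and X, with bars stacked by subfamily (L1Md_F2, L1Md_F3, L1Md_F). The X bar reaches 1.53 per Mb, and the highest autosome, chromosome 12, reaches 0.47.

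Over all scores, the high share on X was seen at F2 and F3. X held 219 of the F2 regions (23.7%, 21.0 to 26.5%) and 31 of the F3 regions (22.0%, 15.9 to 29.5%), but 7 of those at L1Md_F (8.97%, 4.42 to 17.4%). The interval for L1Md_F lay below that for F2 and overlapped that for F3. L1Md_T had 11.7% of its regions on X (11.1 to 12.4%), L1Md_A 11.9% (11.1 to 12.7%) and L1Md_Gf 19.3% (15.0 to 24.5%). The share on X depended on the score. Among the 50% of the whole list with the higher score, X held 8.61% of the 209 F-type regions left (5.52 to 13.2%), below the 10.8% of L1Md_T and 11.6% of L1Md_A, whose own values lie within that interval. The 16.75% of L1Md_Gf (12.1 to 22.7%) lay above it, with intervals that overlapped. By subfamily, X then held 10% of 30 regions at L1Md_F (3.46 to 25.6%), 9.32% of 161 at F2 (5.73 to 14.8%) and 0 of 18 at F3, which allows a share of up to 16.7% (3 counts of 18). F2 and F3 thus no longer stood above L1Md_F there. Without regions of exactly 500 bp X held 18.8% of 32 regions at L1Md_F (8.89 to 35.3%), 23.0% of 269 at F2 (18.4 to 28.4%) and 11.4% of 35 at F3 (4.54 to 25.9%), so that L1Md_F and F3 changed places, with intervals that overlapped. When the list was instead halved by score per kb, a setting added after seeing the data, X held 12.8% of 863 F-type regions (10.7 to 15.1%). L1Md_T had 10.8% there and L1Md_A 11.2%, both within that interval, and L1Md_Gf had 18.15% (13.85 to 23.4%), above it.

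Along X the F-type regions were spread over its whole length, with some windows fuller than others. In 34 windows of 5 Mb the count ran from 2 to 18, with a median of 7. The fullest window, from 150 to 155 Mb, held 18 F-type regions with 18 at L1Md_T and 13 at L1Md_A, whereas the window from 75 to 80 Mb held 9 F-type regions with 58 at L1Md_T and 15 at L1Md_A. Genes that were nearest to several F-type regions were mostly on X: 33 genes were nearest to 3 or more, of which 20 were X-linked. X also carried the most F-type regions per Mb, so this count is not a separate result. The same count was not made for other subfamilies. Gm10058 was nearest to 7 regions, Gm10486 to 6, and Diap2, a formin of the actin cytoskeleton, Gm10096 and Mageb16, a MAGE family gene, to 5 each. The median score at Gm10058 was 6.58, at Gm10486 7.54 and at Gm10096 6.37, low values in a list whose scores start at 4.25 and have a median of 17.8. At Mageb16 the median was 10.2. Several of these are predicted genes, and assignment of reads among similar copies is uncertain there.

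F-type regions were short. Exactly 500 bp, the shortest length among these families, was the length of 808 of the 1144 regions (70.6%, 67.9 to 73.2%), against 28.8% at L1Md_T (27.9 to 29.8%), 29.2% at L1Md_A (28.0 to 30.4%) and 25.4% at L1Md_Gf (20.5 to 31.0%). The median length was 500 bp for each of L1Md_F, F2 and F3, and 798, 779 and 868 bp for L1Md_T, L1Md_A and L1Md_Gf. The upper quartile was 736 bp at L1Md_F, 627 bp at F2 and 500 bp at F3, but 1518 bp at L1Md_T. Regions longer than 1 kb were 3.32% of the F-type regions (38 regions, 2.43 to 4.53%) and 38.7% of those at L1Md_T. Together the 1144 regions covered 678 kb.

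**Figure D2:**
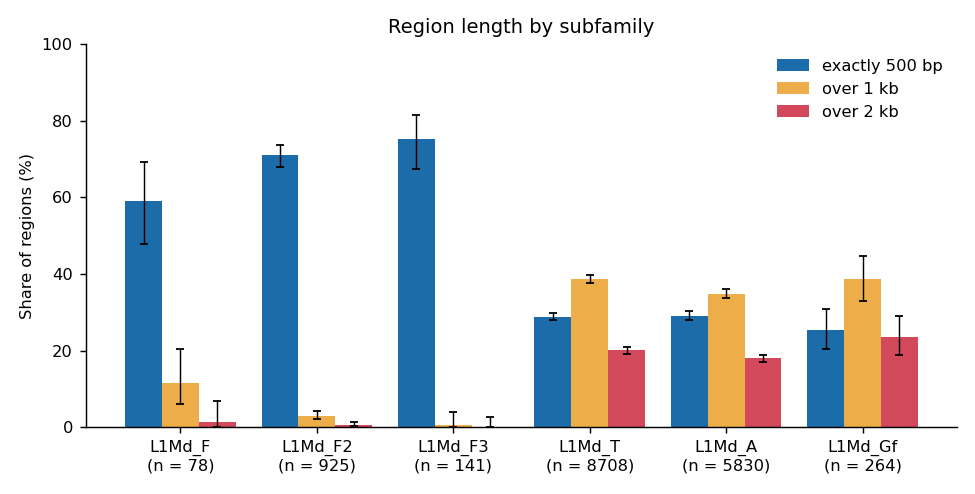
Share of regions (percent, vertical axis) that are exactly 500 bp, longer than 1 kb and longer than 2 kb, for each subfamily; error bars are Wilson 95% intervals. The 3 F subfamilies have 59.0 to 75.2% of their regions at 500 bp, and the T, A and Gf subfamilies 25.4 to 29.2%.

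Within the F group the tail of long regions differed by subfamily. At L1Md_F, 9 of 78 regions were longer than 1 kb (11.5%, 6.19 to 20.5%), at F2 28 of 925 (3.03%, 2.1 to 4.34%), and at F3 1 of 141 (0.71%, 0.13 to 3.91%). The longest was an F2 region of 5631 bp on X (chrX:42761645-42767276, score 190.3) in intron 12 of 32 of Tenm1, which encodes a teneurin, a synaptic cell adhesion protein. The next F2 region measured 4743 bp (chr15:33560413-33565156, score 174.4) in intron 8 of 8 of Cpq, a carboxypeptidase gene. The third measured 3015 bp (chrX:154503528-154506543, score 114.9) and was intergenic near Samt4. At L1Md_F the longest were 2096 bp near Edem1, which acts in the degradation of misfolded glycoproteins (chr6:108958011-108960107, score 84.3), 1787 bp near Ddi1 (chr9:6631843-6633630, score 64.8) and 1512 bp near Slitrk2 (chrX:66175626-66177138, score 48.2). The longest F3 region measured 1060 bp and scored 30.4, in an intron near Iqub (chr6:24506959-24508019). The next F3 regions measured 910 bp (chr2:176111818-176112728, score 28.9, intergenic) and 880 bp (chr5:34723184-34724064, score 26.1, intronic). At F2 and F3 the 3 longest regions also had the 3 highest scores. At L1Md_F the third highest score was 53.5, at a region of 1344 bp near Vmn1r53 (chr6:90234118-90235462).

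Score per kb, the authors' score divided by region length, was higher at L1Md_F than at F2 and F3 when all regions were taken. Its median was 28.2 at L1Md_F (95% interval of the median 26.4 to 29.8; quartiles 24.3 and 32.7), 23.4 at F2 (23.0 to 24.1; quartiles 18.8 and 28.4) and 23.4 at F3 (22.0 to 24.2; quartiles 19.5 and 28.0). L1Md_T had 29.3, L1Md_A 28.9 and L1Md_Gf 29.7, so the interval for L1Md_F held the medians of all 3 and those for F2 and F3 held none of them. The quartile ranges of all 6 subfamilies overlapped. By the score itself the medians were 15.2, 12.3 and 11.9 at L1Md_F, F2 and F3, against 23.4 at L1Md_T, and 18.3% of all F-type regions (16.1 to 20.6%) were in the upper 50% of the list, compared with 65.0% at L1Md_T. Autosomal regions of exactly 500 bp had a median score per kb of 27.2 at L1Md_F (24.6 to 28.8), 23.8 at F2 (23.4 to 24.6) and 23.4 at F3 (22.6 to 24.6). L1Md_T had 26.8 there and L1Md_A 26.4. The lower medians of F2 and F3 were thus also seen at a fixed length, with intervals that met that of L1Md_F at 24.6. Without regions of exactly 500 bp the medians were 30.3 at L1Md_F (27.0 to 34.5), 26.0 at F2 (24.9 to 27.1) and 25.8 at F3 (24.2 to 29.2). In the upper 50% of the list by score they were 33.95 (30.5 to 37.75), 30.7 (30.1 to 32.1) and 30.8 (29.5 to 32.1). The order of L1Md_F above F2 and F3 held in both settings, but the intervals overlapped.

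On X the score per kb was lower than on the autosomes, more so for F2 and F3 than for T and A. The F2 median was 17.4 on X (16.6 to 18.7) and 24.8 on the autosomes (24.3 to 25.4), a ratio of 0.702. For F3 the medians were 18.3 (15.7 to 21.1) and 24.1 (23.4 to 25.8), a ratio of 0.756. L1Md_T had 27.2 on X and 29.5 on the autosomes (ratio 0.923), and L1Md_A 27.6 and 29.0 (ratio 0.952). At exactly 500 bp the ratios were 0.696 for F2, 0.744 for F3, 0.821 for L1Md_T, 0.871 for L1Md_A and 0.753 for L1Md_Gf. The 7 regions at L1Md_F on X had a median of 22.3 with an interval of 19.1 to 33.4, which also holds the autosomal median of 28.4. A male mouse has a single X; values for input were not analysed here, so the part of copy number in these ratios was not tested. On X, 42.8% of the F-type regions were in the upper 50% of the list by score per kb, against 84.9% on the autosomes. For L1Md_T these shares were 86.2% and 94.8%, and for L1Md_A 87.6% and 93.6%. The whole list includes Y and contigs, and its median score per kb was 19.1. On chromosomes 1 to 19 and X alone the median over all regions was 28.0.

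**Figure D3:**
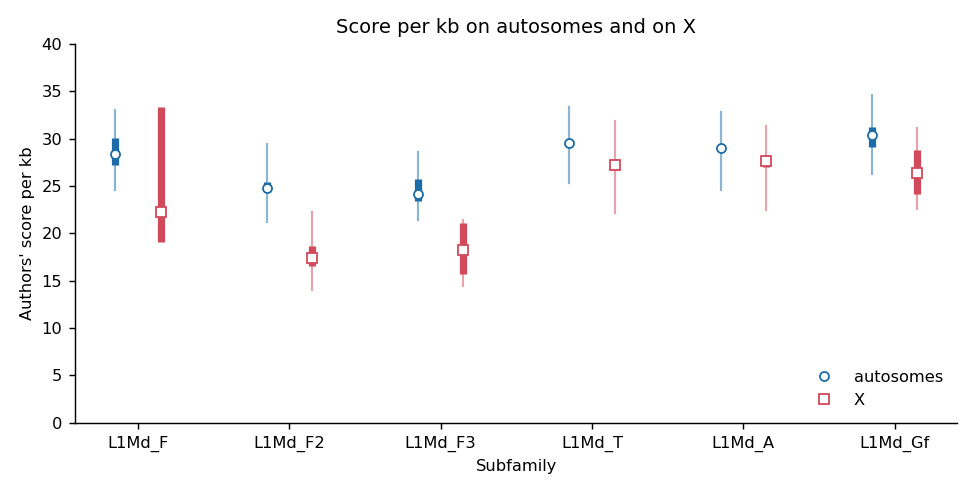
Authors' score per kb (vertical axis) for each subfamily on the autosomes (circles) and on X (squares): points are medians, thick bars 95% intervals of the median and thin bars the quartile range. For F2 the median is 24.8 on the autosomes and 17.4 on X, and for L1Md_T 29.5 and 27.2.

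The regions with the highest scores per kb were short and intergenic, as were most F-type regions (70.6% exactly 500 bp, 80.3% intergenic). Short length did not go with a high value in the whole group. The median score per kb was 26.5 (25.4 to 27.4) in F-type regions longer than 500 bp and 23.0 (22.0 to 23.4) at exactly 500 bp. Among F2 regions they were 51.8 (chr6:74388122-74388622), 46.8 near Sec23a, a component of the COPII vesicle coat (chr12:58864832-58865332), and 44.2 near the cadherin gene Cdh20 (chr1:105059657-105060157), all 500 bp long. At L1Md_F they were 47.2 (chr1:85300626-85301126), 42.8 (chr14:19471176-19471676) and 42.5 near Bsph1, a gene for a sperm-binding protein of the epididymis (chr7:13448335-13449109). At F3 the 2 highest were 40.8 (chr7:12239078-12239578) and 38.2 (chr2:177041948-177042448). The highest value at F3 was below the third highest at F2.

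F-type regions had another of their own group within 10 kb less often than T, A or Gf regions did. The median distance from the centre of an F-type region to the next region in any of the 3 F subfamilies was 462 kb (406 to 542 kb), and 11.2% had one within 10 kb (9.49 to 13.2%). At L1Md_T 55.4% had another L1Md_T region within 10 kb, and at L1Md_A 54.8% had another L1Md_A region. A group with more regions has closer neighbours. L1Md_Gf, with 264 regions, had 43.0% (37.1 to 49.0%) within 10 kb of another, most of them 2 to 4 kb apart, while its median distance to the next Gf region was 719 kb (193 to 1107 kb), an interval that holds the F-type median. In that 2 to 4 kb bin lay 5.07% of the F-type regions, 29.2% of those at L1Md_T, 26.6% at L1Md_A and 28.9% at L1Md_Gf. Counted within a single subfamily, where the chromosome held a second region of it, 12 of 75 regions at L1Md_F had another within 10 kb (16.0%, 9.4 to 25.9%), 104 of 925 at F2 (11.2%, 9.37 to 13.4%) and 6 of 140 at F3 (4.29%, 1.98 to 9.03%).

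**Figure D4:**
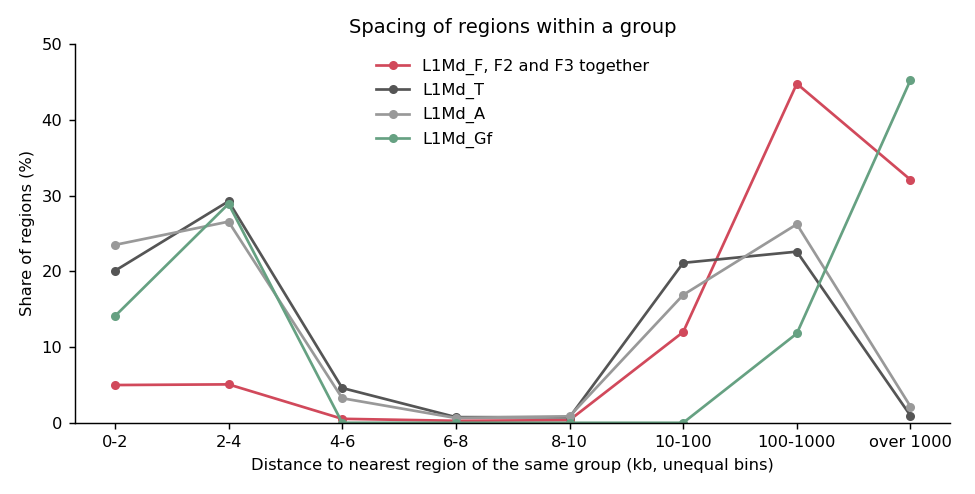
Share of regions (percent, vertical axis) by the distance to the nearest region of the same group (kb, bins of unequal width), for the F subfamilies together, L1Md_T, L1Md_A and L1Md_Gf. T, A and Gf have 26.6 to 29.2% of regions in the 2 to 4 kb bin, and the F subfamilies 5.07%.

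Counting any kind of region as a neighbour, 846 of the 1144 F-type regions (74.0%, 71.3 to 76.4%) had none within 10 kb. The share that had one was 26.05%, against 60.3% at L1Md_T, 61.1% at L1Md_A and 68.6% at L1Md_Gf. By subfamily that share was 41.0% at L1Md_F (30.8 to 52.1%), 25.5% at F2 (22.8 to 28.4%) and 21.3% at F3 (15.3 to 28.75%). For the 298 F-type regions with a neighbour, the nearest was another region of the F subfamilies for 125, a region at L1Md_T or L1Md_A for 114 and something else for 59. The distance to the nearest region at L1Md_T, A or Gf had a median of 56.5 kb (49.9 to 63.9 kb). Score per kb had the same median, 23.8, with and without a neighbour within 10 kb, with intervals of 23.0 to 25.0 and 23.0 to 24.2.

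A few stretches held 3 or more F-type regions within 50 kb; there were 7. On chromosome 7, 4 regions lay between 13411358 and 13449109, between Cabp5, a neuronal calcium-binding protein gene, and Bsph1, with scores of 13.0 to 79.0. On X, 4 F2 regions lay between 110976638 and 111019567 near Cylc1, which encodes a cylicin of the sperm head, with scores of 9.56 to 37.2. On chromosome 4, 3 regions lay between 60277358 and 60291370 near Mup8, a major urinary protein gene, with scores of 14.4 to 17.2. The others were on chromosome 14 (7683099 to 7732404) and on X (35300753 to 35346575, 67892713 to 67901670 and 92917533 to 92965749). The stretch near Gm10096 on X had the lowest scores, 5.1 to 6.8. All 7 stretches were intergenic.

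In relation to genes, F-type regions were mainly intergenic. Of the 1144, 919 were intergenic (80.3%, 77.9 to 82.5%) and 225 intronic (19.7%, 17.5 to 22.1%). The annotation names a repeat only in those 2 classes: none of the 107 regions of other classes on these chromosomes has one, so regions in promoters or exons could not be members. The intronic share was 20.3% at F2 (17.9 to 23.0%) and 23.4% at F3 (17.2 to 31.0%), against 21.2% at L1Md_T, 19.5% at L1Md_A and 13.3% at L1Md_Gf (9.69 to 17.9%). For F3 it was 44.4% of the 18 regions in the upper 50% of the list by score (24.6 to 66.3%) and 34.3% of the 35 that were not exactly 500 bp (20.8 to 50.8%). At L1Md_F it was 5.13% (4 of 78, 2.01 to 12.5%), an interval that lay below those of F2 and F3. On X the intronic share of all 3 together was 13.2% (9.62 to 17.9%), and on the autosomes 21.5% (19.0 to 24.4%).

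The nearest transcription start site (TSS) was closer to F-type regions than to T and A regions. The median distance was 90.3 kb (80.8 to 98.2 kb), against 127 kb at L1Md_T (122 to 133 kb) and 144 kb at L1Md_A (138 to 151 kb). Within the group, F3 lay closest, with 59.6 kb (46.1 to 85.8 kb), F2 had 93.0 kb (84.2 to 102 kb) and L1Md_F 108 kb (79.1 to 144 kb). These 3 intervals overlapped one another, and that of L1Md_F also held the L1Md_T median. On the autosomes alone the medians were 49.3 kb at F3, 88.1 kb at F2, 109 kb at L1Md_F and 131 kb at L1Md_T. On X they were 116 kb at F3 (48.8 to 185 kb), 103 kb at F2 (91.1 to 121 kb), 80.8 kb for the 7 regions at L1Md_F (7.39 to 473 kb) and 107 kb at L1Md_T (93.4 to 119 kb), so F3 was not the closest there and these 4 intervals overlapped. All F-type regions on X together had a median of 104 kb (92.2 to 121 kb), an interval that holds the L1Md_T median. Regions upstream and downstream of their nearest TSS were about as many, 573 and 571, but not within each class. Intergenic F-type regions were more often upstream (523 and 396), and intronic ones more often downstream (50 and 175). The other subfamilies had the same directions. Intergenic counts were 3988 and 2870 at L1Md_T, 2726 and 1965 at L1Md_A, and 120 and 109 at L1Md_Gf. Intronic counts were 423 and 1427, 248 and 891, and 8 and 27. The split is therefore not read as a trait of F-type regions.

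**Figure D5:**
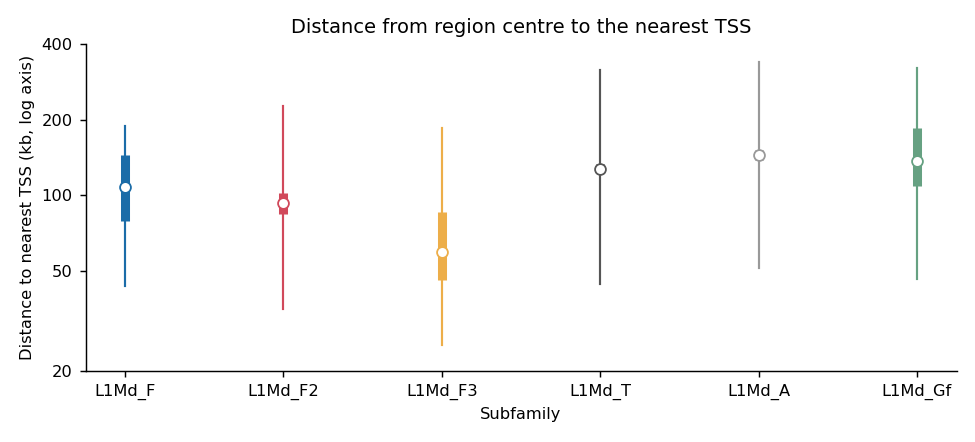
Distance from region centre to the nearest TSS (kb, log axis) by subfamily: points are medians, thick bars 95% intervals of the median and thin bars the quartile range. F3 has the lowest median, 59.6 kb, and L1Md_A the highest, 144 kb.

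Close to a TSS there were few. Within 1 kb lay 1 F-type region and within 5 kb 19 (1.66%, 1.07 to 2.58%), compared with 1.27% at L1Md_T and 0.96% at L1Md_A. Regions annotated as promoter have no repeat name and could not be members. The low count within 1 kb was therefore set in part by the selection. The closest was an F2 region 869 bp downstream of the TSS of Lyzl1, a lysozyme-like gene of the testis (chr18:4166451-4166951, score 7.86). Next came an F2 region 1021 bp upstream of the small heat shock protein gene Hspb3 (chr13:113664447-113664947, score 12.5) and one 1260 bp upstream of the olfactory receptor gene Olfr1213 (chr2:88981277-88981777, score 10.6). An F3 region lay 1450 bp upstream of Lynx1, which modulates nicotinic acetylcholine receptors (chr15:74754179-74754679, score 14.0). The next 4 were near Trim75 (2016 bp, score 9.34), Bsph1 (2119 bp, 32.9), the alcohol dehydrogenase gene Adh6a (2346 bp, 17.2) and the vomeronasal receptor gene Vmn1r215 (2371 bp, 19.3). Of these 8 regions those near Bsph1 and Vmn1r215 scored above the median of the list, 17.8.

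Chemoreceptor genes were nearest to a small part of the F-type regions, at shares like those of the T and A regions. Olfactory receptor genes were nearest to 27 of the 1144 (2.36%, 1.63 to 3.41%), against 2.15% of the T and A regions together (1.92 to 2.4%). Vomeronasal receptor genes were nearest to 25 (2.19%, 1.49 to 3.21%), against 1.6% (1.41 to 1.82%). The median distances to the TSS in these 2 sets were 9.22 and 10.3 kb. Of the 19 F-type regions within 5 kb of a TSS, 7 were at such genes: Olfr18, Olfr159, Olfr205, Olfr1213, Vmn1r215, Vmn2r29 and Vmn2r38. The matching share among all regions, or among T and A regions, within 5 kb of a TSS was not counted. These 7 are therefore not read as a trait of F-type regions. The highest score at a vomeronasal gene was 81.1, at an F2 region 8554 bp from the TSS of Vmn1r94 (chr7:20158491-20161156), and the next 56.5, near Vmn2r114 (chr17:23324269-23326108).

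Genes of 3 germ-line lists were nearest to 3 F-type regions in all, too few to set them apart from the list as a whole. Of 39 genes for L1 silencing and the piRNA pathway (38 found in the RefSeq table), including Piwil2, Mov10l1, Dnmt3l and Phf13 itself, 0 were nearest to an F-type region, which allows a share of up to 0.262% of the regions (3 counts of 1144). Of 31 genes of meiotic prophase only Tex11, an X-linked gene needed for meiotic crossing over, was nearest to any. It held 2 F2 regions, in introns 7 and 16 of 24 (chrX:101021804-101022304, score 9.98, and chrX:100940623-100941123, score 8.07). Of 25 genes of spermiogenesis only Spaca1, a gene for an acrosomal membrane protein, was nearest to 1 region, 205 kb away (chr4:34254207-34255525, score 32.5). The shares of the 3 lists were thus 0%, 0.175% (0.048 to 0.635%) and 0.0874% (0.0154 to 0.494%) of the F-type regions. Among all 23030 regions on these chromosomes they were 0.0521%, 0.0999% and 0.0261%, within those limits, and in the T and A regions together 0.0619%, 0.103% and 0.0344%.

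The genes that held F-type regions in introns were long, as were the hosts of T, A and Gf regions. A host was found in the RefSeq table for 207 of the 225 intronic regions, and the rest had a transcript that did not match at that place. The 183 hosts included 171 protein-coding genes with a median length of 193 kb (158 to 233 kb), against 17.4 kb for all 21523 protein-coding genes on these chromosomes. For hosts of L1Md_T regions the median was 207 kb, for L1Md_A 241 kb and for L1Md_Gf 337 kb (141 to 602 kb). A longer gene has more room for any region, and gene length was not allowed for. The difference from all genes is therefore not read as a trait of F-type regions. First introns held 54 of the 225 (24.0%, 18.9 to 30.0%), and L1Md_T had 23.7%. Of the 183 hosts, 80 (43.7%) also held a region at L1Md_T or L1Md_A, and these 80 were 6.94% of the 1153 hosts of T and A regions. The share to be expected for genes of this length was not computed.

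The 10 intronic F-type regions with the highest score per kb were all at F2, which held 188 of the 225 intronic regions. The intronic median was not higher at F2: it was 24.1 (22.6 to 25.4), against 26.4 at F3 (23.4 to 28.8). For the 4 regions at L1Md_F it was 25.2. The highest of the 10 was in intron 6 of 6 of Creb1, the cAMP-responsive transcription factor (chr1:64583214-64583714, score per kb 43.4). Next were Sgcd, which encodes delta-sarcoglycan of the muscle membrane (intron 3 of 7, chr11:47161804-47162880, 38.3), Ldlrad4, a regulator of TGF-beta signalling (intron 2 of 5, 36.9), and Cpq (36.8). The others ranged from 34.8 to 36.6. They were Abcb5, an ABC transporter, Ptprn2, a phosphatase-like protein of secretory vesicles, Zfp984, a zinc finger gene, Inpp4b, a phosphoinositide phosphatase, Gstcd, and Nebl, the gene of nebulette in the muscle Z-disc.

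Few genes held more than 1 F-type region: 162 hosts had 1 and 21 had 2 or more. Mageb18 on X had 4, all in intron 3 of 4, with scores of 6.16, 7.43, 12.5 and 23.1. Tenm1 on X had 3, with scores of 190.3, 9.34 and 11.5, so 1 of them stood far above the others. The other 19 had 2 each. In 10 of the 21 genes the closest regions were within 4 kb of each other, as in Sos2, a Ras exchange factor (1471 bp apart, scores 13.8 and 20.2), Glmn (1385 bp, 16.1 and 12.3), Mef2a, a transcription factor of muscle (2837 bp, 22.3 and 13.0), and Mcf2 on X (2472 bp, 30.8 and 40.8). In Mcf2 both were longer than 1 kb. In the others the closest regions were from 5157 bp (Agbl1) to 237 kb (Gpr158) apart.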

How the data were processed

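The series has 6 libraries (3 SPOC1 ChIP and 3 input). Per the submitters' processing notes, Bowtie2 2.2.2, SAMtools and HOMER 4.6 were used with build mm10; their roles are not given in the sources used here. As deposited by the authors, the file is 1 list of regions, per the file headers annotated with HOMER against mm10, with a score per region whose unit is not stated; it has 0 columns per library, so depth and precision per library are unknown. Coordinates are printed as in the list.

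Regions were selected by repeat name. Shares have Wilson 95% intervals and medians order-statistic 95% intervals. Distances between regions run from centre to centre. A chromosome's span ran between its outermost genes or regions, without genes that start below 3 Mb. Host genes and their lengths were looked up in RefSeq (GRCm38.p6) by transcript accession, chromosome and position; introns are the authors' annotation. Median intervals and distances were tested on simulated data. Regions named were the 3 highest by score per kb, length and score in each subfamily, the 8 nearest to a TSS, runs of 3 or more within 50 kb, the 10 intronic regions with the highest score per kb, hosts of 2 or more and members of the gene lists; where these were many, examples were chosen after their values were seen, and 1 region is not reported here. The genes nearest to 3 or more regions were counted after the data were seen. Members and gene lists were chosen with earlier results of these data known. Sequences of the regions were not analysed here. The software was SciPy 1.17.1, NumPy 2.4.6, pandas 2.3.3 and matplotlib 3.10.9 under Python 3.11.15.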

Additional observations from a re-analysis of the deposited data

How the results depend on the processing

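Some values moved out of their own 95% interval in other settings. In the 50% of the list with the higher score, 209 of the 1144 regions remained, 8.61% of them on X; their median length was 764 bp, distance to a TSS 73.4 kb and score per kb 31.0. Without regions of exactly 500 bp these medians were 669 bp, 72.6 kb and 26.5. Score per kb was 25.0 on the autosomes, 23.0 at exactly 500 bp (chosen after seeing the data) and 12.5 as the undivided score. X held 12.8% when the list was halved by score per kb (chosen after seeing the data). The distance to the nearest other young L1 was 101 kb to L1Md_T and 164 kb to L1Md_A. The selection by score or length removes low or short regions by construction. A distance to L1Md_T or L1Md_A alone cannot be shorter than that to L1Md_T, A or Gf, and the undivided score is a different quantity. For the other shifts the cause was not tested. The intronic share of the whole group stayed within its interval in all 3 settings run; that of F3 did so in 1 of them. With Y and contigs included there were 1630 regions. By single subfamily, 34 of 63 values moved and 29 did not. The 63 include region counts, which have no interval and were judged by fold change. They also include shifts set by construction, as for the selections and the undivided score above. No paired analysis was possible because the deposited list merges libraries; for the same reason no replicate could be left out. Depth is unknown, so no limit of detection was set.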

Other observations

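Regions at L1Md_F, F2 and F3 on chromosome Y, which lie outside the set described above, numbered 476, with 10 more on contigs. Of those on Y, 250 were at F2, 178 at F3 and 48 at L1Md_F. They were longer than on the other chromosomes, with a median of 781 bp (672 to 917 bp), and 37.4% were exactly 500 bp. The longest measured 18263 bp and scored 233.4, at F2. Score per kb had a median of 12.3 (11.9 to 12.4), below that on X (17.8) and on the autosomes (25.0). On Y, F2 had 13.3 (12.6 to 13.7), L1Md_F 12.3 (11.8 to 12.8) and F3 11.5 (11.2 to 11.6), so L1Md_F did not have the highest value there. The genes most often nearest were Gm20871 (142 regions), Gm20738 (75) and Gm20736 (64). Y carries many near-identical copies, and the placement of reads among them is uncertain.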
